A study of Rattus norvegicus with 18 samples.

Results

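The lipoprotein lipase system and the fatty acid uptake proteins were followed as 8 genes: Lpl, Lmf1, Gpihbp1, Angptl4, Vldlr, Cd36, Slc27a1 and Fabp3. A gene entered where the probe table pairs a probe set with its symbol alone, with 1 probe set per gene, that of the highest mean. Of the 8 genes, 6 met this, out of 16856 genes measured in all: Lpl (probe set 10791250), Lmf1 (10732427), Gpihbp1 (10897062), Angptl4 (10901166), Vldlr (10714576) and Slc27a1 (10787313). The only probe set listed for Cd36, and the only one for Fabp3, carries the symbol of another gene as well, so these 2 genes have no value here. All 6 measured genes passed the filter on dim genes. The muscle is the extensor digitorum longus, a fast muscle of the lower hindlimb, of 18 adult Sprague-Dawley female rats of the F2 generation. Every female descended from an F0 founder kept on chow or on a high-fat diet, and for 12 weeks she ate chow herself or a diet with 42/45% of its energy from fat. Groups are written as grandfather's diet/own diet: chow/chow (n = 5), chow/high-fat (n = 5), high-fat/chow (n = 4) and, last, high-fat/high-fat (n = 4). No group carries a transgene or drug, each array holds the RNA of 1 animal, and the labels give neither the animals' exact age nor the number of founders. Relatives within a lineage would make p-values of the grandfather's diet too small.

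Muscle takes fatty acids from the blood in steps that these genes serve. Lipoprotein lipase, the product of Lpl, is made in muscle fibres, folded with the help of the endoplasmic reticulum protein Lmf1 and carried across the capillary wall by Gpihbp1, a protein of endothelial cells, to cut triglycerides of circulating lipoproteins. Angptl4 is a secreted inhibitor of the enzyme whose transcription fatty acids induce, and Vldlr is a receptor that binds triglyceride-rich lipoproteins. Slc27a1 (also called FATP) is a fatty acid transport protein with acyl-CoA synthetase activity.

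The RefSeq promoter table (build GRCr8) holds 4 of the 6 measured genes. Lpl and Gpihbp1 have no entry in it. The 250 bases before the start that the table uses are shown for Slc27a1 (chr16:18312717-18312966, plus strand) and Angptl4 (chr7:15258682-15258931, minus strand), the genes with the largest differences by own diet, and for Vldlr (chr1:234240436-234240685, plus strand), the gene with the smallest. Capitals mark exact matches on either strand to AGGTCA (the core of hormone receptor sites), its direct repeat with 1 free base between (the repeat that PPAR receptors bind, which contains the former), TATAAA (the TATA box), GGGCGG (the GC box) or CCAAT (the site of the factor NF-Y).
Slc27a1: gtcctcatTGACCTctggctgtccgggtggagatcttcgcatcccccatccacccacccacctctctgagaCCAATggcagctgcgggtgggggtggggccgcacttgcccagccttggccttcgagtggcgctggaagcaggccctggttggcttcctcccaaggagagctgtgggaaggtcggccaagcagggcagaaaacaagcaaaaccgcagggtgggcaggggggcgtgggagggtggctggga
Angptl4: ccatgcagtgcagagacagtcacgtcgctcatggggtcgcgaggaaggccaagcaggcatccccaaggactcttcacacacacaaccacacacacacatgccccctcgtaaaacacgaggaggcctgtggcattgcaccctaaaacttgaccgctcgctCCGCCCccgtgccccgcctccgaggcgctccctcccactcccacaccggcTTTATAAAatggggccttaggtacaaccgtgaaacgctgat
Vldlr: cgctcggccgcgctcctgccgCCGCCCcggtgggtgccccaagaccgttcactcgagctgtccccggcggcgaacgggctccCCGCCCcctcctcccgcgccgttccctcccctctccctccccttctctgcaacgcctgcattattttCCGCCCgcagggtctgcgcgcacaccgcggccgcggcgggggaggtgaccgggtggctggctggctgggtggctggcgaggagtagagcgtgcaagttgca
In the Slc27a1 window AGGTCA matched on the reverse strand 242 to 237 bases before the start, and CCAAT matched once nearer to it. The Angptl4 window held TATAAA 39 to 34 bases before the start, overlapping a match on the reverse strand, and GGGCGG on the reverse strand 91 to 86 bases before it. Vldlr had 3 matches to GGGCGG. Of 33469 promoter windows of this length, 14.1% held AGGTCA, 0.0508% the full repeat, 12.9% TATAAA, 30.5% GGGCGG and 34% CCAAT. A match describes the letters only.

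Intensities were deposited on a linear scale for 20917 probe sets, with array medians from 55.02 to 73.97, and levels below are log2(intensity + 16) after quantile normalization, 1 unit being 2-fold. As a check of the tissue, the 7 measured striated muscle markers and the 6 measured fast-fibre markers all had means above those of at least 99.56% of genes. Their levels cannot show how pure the dissection was. In this bulk RNA, fewer cells of a type and less RNA per cell cannot be told apart. Tests used limma over 12642 genes, with Benjamini-Hochberg adjustment over all of them and a threshold of 0.05.

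With the own high-fat diet, averaged over both lineages, Slc27a1 was 1.70-fold higher, Angptl4 1.53-fold, Gpihbp1 1.28-fold, Lmf1 1.10-fold and Lpl 1.09-fold, while Vldlr was at 0.997-fold. None of the 6 passed the threshold (limma, 0 of 6 against 0.0158% of all genes), so none can be called changed. Of the 6, 4 had an unadjusted p under 0.05, against 6.73% of all genes. The median difference was 0.24 log2 with 5 of 6 higher, against a median of -0.0028 and 48.3% higher over all genes, and Vldlr alone took the other sign under some scalings. These values describe 6 genes chosen with earlier results of the same animals known.

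**Figure D1:**
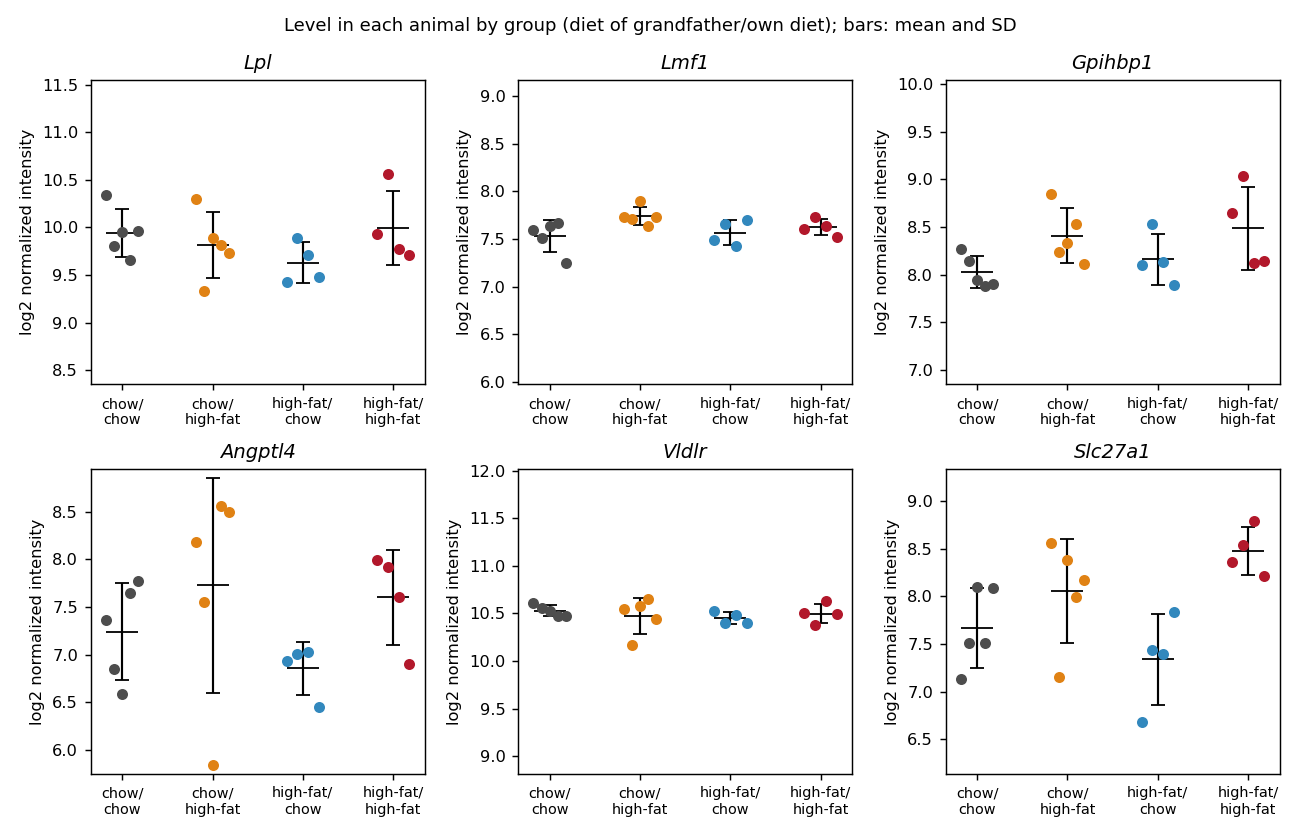
Each point is 1 animal and each panel 1 gene, with log2 normalized intensity on the y axis, the 4 groups on the x axis, and bars for the mean and SD (n = 5, 5, 4 and 4). All panels span the same width on the y axis: Slc27a1 and Angptl4 spread widely within groups, Vldlr and Lmf1 little, and only for Slc27a1 do the high-fat/high-fat animals (8.21 to 8.79) lie apart from the high-fat/chow animals (6.68 to 7.84).

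Slc27a1 stood at log2 levels of 7.14, 7.51, 8.10, 7.51 and 8.08 in the chow/chow animals and 8.56, 7.16, 8.38, 7.997 and 8.17 in the chow/high-fat animals. It stood at 6.68, 7.43, 7.40 and 7.84 in the high-fat/chow animals and 8.36, 8.54, 8.79 and 8.21 in the high-fat/high-fat animals. In the chow lineage the groups overlapped, and chow/high-fat replicate 2 was at the level of the lowest chow-fed animal. In the high-fat lineage every high-fat-fed female lay above every chow-fed one. On the deposited scale the 4 group means were 199 ± 54.4, 241 ± 85.8, 155 ± 63.2 and 378 ± 63.1 (SD, n = 5, 5, 4 and 4). The average difference was 0.76 log2 (SE 0.18, 95% confidence interval 0.38 to 1.15, limma adjusted p = 0.246, higher than the counterparts' mean in 8 of 9 animals). By unadjusted p (0.000510) it ranked 26th of 12642 genes. It was 0.39 (SE 0.24, limma adjusted p = 0.9996) in the chow lineage, with 0.61 without chow/high-fat replicate 2 and 0.25 without chow/chow replicate 1, and 1.14 (SE 0.27, 2.20-fold, confidence interval 0.57 to 1.71, adjusted p = 0.245) in the high-fat lineage. Each sample title carries a code with the number 5, 7 or 9, which no label explains and which is called the well column here. Some full codes occur in the titles of more than 1 animal, so arrays of the same number need not share a plate or run. Within well columns 5, 7 and 9 the difference was 1.14, 0.66 and 0.62, the last from the high-fat lineage alone with 2 animals against 1. Column 5 held 5 chow-fed and 3 high-fat-fed animals, and column 7 held 2 and 4. Their lineage differences were averaged with equal weight, so single animals weighed heavily in each column, for every gene. Across the other settings and the arrays left out in turn it ran from 0.63 to 0.88, with adjusted p from 0.0754 (without chow/high-fat replicate 2) to 0.547.

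Angptl4, the inhibitor, was the most variable of the genes. Its levels were 7.36, 6.84, 6.58, 7.65 and 7.77 in the chow/chow group and 8.18, 7.56, 5.84, 8.56 and 8.50 in the chow/high-fat group. They were 6.93, 7.01, 7.02 and 6.45 in the high-fat/chow group and 7.99, 7.92, 7.60 and 6.90 in the high-fat/high-fat group. The lowest and the highest of the 18 animals, chow/high-fat replicates 3 and 4, thus shared a group, and the diets overlapped in both lineages. The average difference by own diet was 0.62 log2 (SE 0.29, 95% confidence interval 0.0091 to 1.22, adjusted p = 0.741, above the counterparts' mean in 8 of 9 animals). It was 0.49 (SE 0.39) in the chow lineage and 0.75 (SE 0.43) in the high-fat lineage. Within well columns 5, 7 and 9 it was 0.84, 0.34 and 1.51. In the chow lineage single arrays weighed heavily: the difference was 0.96 without chow/high-fat replicate 3, 0.28 without chow/high-fat replicate 4 and -0.048 without chow/high-fat replicates 4 and 5, the 2 arrays of lowest deposited median.

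Gpihbp1, the capillary carrier, was at 8.27, 8.14, 7.95, 7.88 and 7.91 in chow/chow and 8.84, 8.23, 8.33, 8.53 and 8.11 in chow/high-fat animals. It was at 8.10, 8.53, 8.13 and 7.89 in high-fat/chow and 8.65, 9.03, 8.12 and 8.15 in high-fat/high-fat animals. Each chow/high-fat animal exceeded the chow/chow mean, and 2 of 4 high-fat/high-fat animals exceeded the high-fat/chow mean. The ranges overlapped in both lineages. The average difference was 0.35 log2 (SE 0.12, 95% confidence interval 0.091 to 0.61, unadjusted p = 0.0108, limma adjusted p = 0.606), with 0.38 (SE 0.17) in the chow and 0.32 (SE 0.19) in the high-fat lineage. The latter was 0.14 without high-fat/high-fat replicate 2, the animal with the highest level. Within well columns 5, 7 and 9 the difference was 0.19, 0.16 and 0.95.

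Lpl itself stood at 10.34, 9.81, 9.95, 9.66 and 9.96 in chow/chow and 10.30, 9.34, 9.89, 9.82 and 9.73 in chow/high-fat animals. It stood at 9.43, 9.89, 9.71 and 9.48 in high-fat/chow and 9.93, 10.57, 9.77 and 9.71 in high-fat/high-fat animals. In the chow lineage 1 of 5 high-fat-fed animals exceeded the chow-fed mean, and in the high-fat lineage 4 of 4 did, with overlapping ranges in both. The difference was -0.13 (SE 0.17) in the chow lineage and 0.37 (SE 0.19, adjusted p = 0.598) in the high-fat lineage, the former -0.0099 without chow/high-fat replicate 2 and the latter 0.18 without high-fat/high-fat replicate 2. Averaged over lineages it was 0.12 (SE 0.13, 95% confidence interval -0.15 to 0.39, adjusted p = 0.919), and 0.024 without high-fat/high-fat replicate 2. It was 0.048, -0.0092 and 0.77 within well columns 5, 7 and 9. The slow-fibre markers differed in the same direction as Lpl in each lineage. Of the 12 measured, 12 were lower in the chow lineage (median -0.33 log2), where 48.6% of all genes were higher. In the high-fat lineage 11 were higher (median 0.44), against 49.6% of all genes. By limma 0 passed in either, or had an unadjusted p under 0.05. Their summed normalized intensity ran from 11872 to 21934 in chow/chow, 7152 to 21930 in chow/high-fat, 6922 to 17268 in high-fat/chow and 5500 to 18763 in high-fat/high-fat animals. Their part in the values of Lpl was not tested.

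Lmf1, the maturation factor, stayed within 0.65 log2 over all animals. Its levels were 7.60, 7.51, 7.63, 7.67 and 7.25 in chow/chow and 7.73, 7.71, 7.90, 7.64 and 7.73 in chow/high-fat animals. They were 7.49, 7.65, 7.43 and 7.70 in high-fat/chow and 7.61, 7.73, 7.64 and 7.52 in high-fat/high-fat animals. The chow/high-fat animals were high as a group, and 1 of them lay inside the chow/chow range. The average difference was 0.13 (SE 0.060, 95% confidence interval 0.0066 to 0.26, adjusted p = 0.727), with 0.21 (SE 0.080) in the chow and 0.054 (SE 0.090) in the high-fat lineage. Without chow/chow replicate 5, the animal of lowest level, it was 0.097 on average and 0.14 in the chow lineage. Within well columns 5, 7 and 9 it was 0.095, 0.086 and -0.030.

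Vldlr, the lipoprotein receptor, had nearly level groups. Chow/chow animals were at 10.61, 10.56, 10.53, 10.48 and 10.47, and chow/high-fat animals at 10.54, 10.17, 10.58, 10.65 and 10.44. High-fat/chow animals were at 10.53, 10.40, 10.49 and 10.40, and high-fat/high-fat animals at 10.50, 10.38, 10.63 and 10.49. All groups overlapped, and the lowest value was that of chow/high-fat replicate 2, which was also lowest for Lpl. The average difference was -0.0039 log2 (SE 0.058, 95% confidence interval -0.12 to 0.12, limma adjusted p = 0.995). The interval leaves room for a change of about 0.12 log2 either way. The sign turned with arrays centred on their medians (0.011), with array weights (0.0063) and with the well column as a block (0.015).

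**Figure D2:**
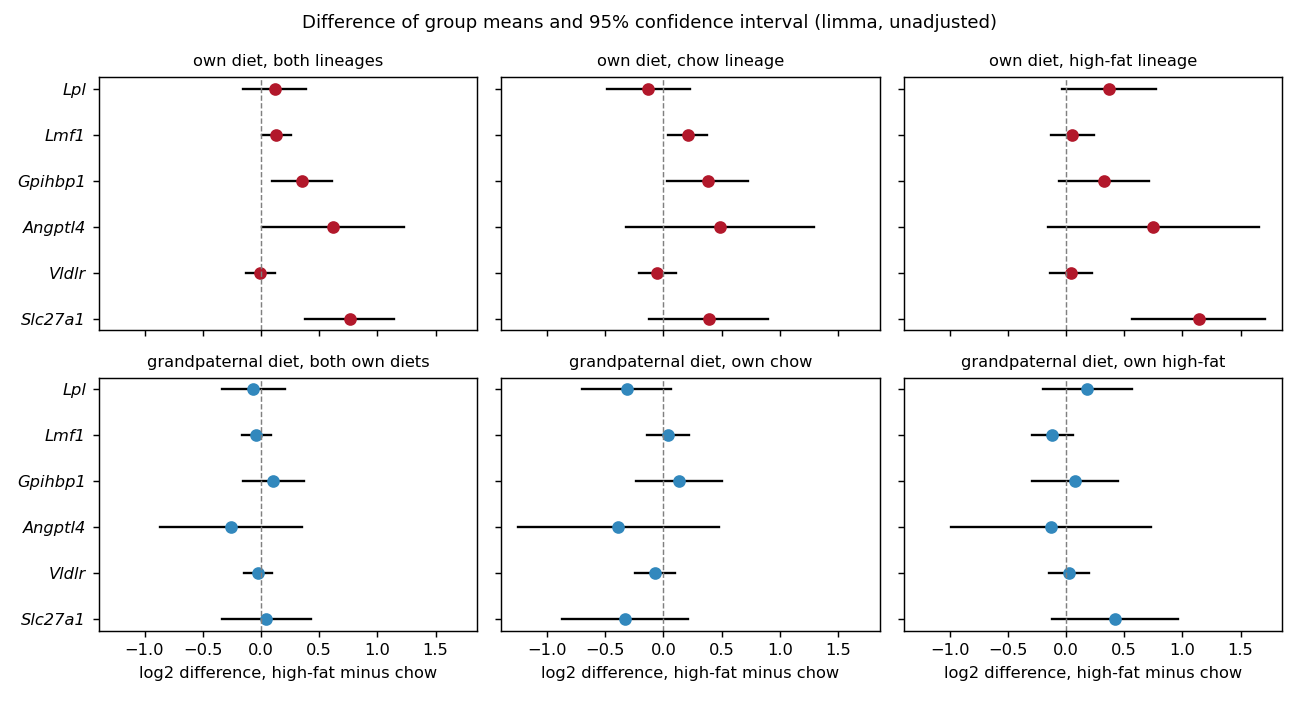
Points are differences of group means (x axis, log2, high-fat minus chow) for the 6 genes (y axis) in 6 comparisons, and lines are limma's 95% confidence intervals without adjustment for multiple tests. For the own diet Slc27a1 lies farthest from 0 (0.76 on average, 1.14 in the high-fat lineage), and for the grandfather's diet every interval crosses 0.

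By lineage, 0 of 6 genes passed for the own diet in the chow lineage (0% of all genes) and 2 had an unadjusted p under 0.05, Lmf1 and Gpihbp1, against 4.80%. There 4 of 6 were higher (48.6% of all genes) and for 0 of 6 did the groups separate without overlap, against 0.759%. In the high-fat lineage 0 of 6 passed (0% of all genes) and 1, Slc27a1, had an unadjusted p under 0.05, against 9.25%. All 6 were higher (49.6% of all genes), by a median of 0.35 log2 against -0.0013, and for 1 of 6, Slc27a1, the groups did not overlap, against 4.12%. Whether the own diet acted differently in the lineages was tested as an interaction, the difference in the high-fat lineage minus that in the chow lineage. It was 0.75 log2 for Slc27a1 (SE 0.37, 95% confidence interval -0.013 to 1.52, limma adjusted p = 0.715) and 0.50 for Lpl (SE 0.26, confidence interval -0.044 to 1.04, adjusted p = 0.734). The value of Lpl was 0.31 without high-fat/high-fat replicate 2. The interaction was 0.26 for Angptl4 (SE 0.58), 0.098 for Vldlr (SE 0.12), -0.056 for Gpihbp1 (SE 0.25) and -0.16 for Lmf1 (SE 0.12). None passed (0% of all genes), and 0 of 6 had an unadjusted p under 0.05, against 6.83%.

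For the diet of the grandfather, averaged over the own diets, the 6 differences lay between -0.26 (Angptl4, SE 0.29, 95% confidence interval -0.86 to 0.35, adjusted p = 0.724) and 0.10 log2 (Gpihbp1, SE 0.12, confidence interval -0.16 to 0.37, adjusted p = 0.740). Slc27a1 differed by 0.046 (SE 0.18), Lpl by -0.067 (SE 0.13), Lmf1 by -0.040 (SE 0.060) and Vldlr by -0.025 (SE 0.058). Of the 6 genes 0 passed, against 0.198% of all genes, and 0 had an unadjusted p under 0.05, against 14.6%, and 2 of 6 were higher (48.8% of all genes). The intervals still allow log2 differences of 0.43 for Slc27a1 and 0.86 for Angptl4.

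Among chow-fed granddaughters, Angptl4, Slc27a1 and Lpl differed by -0.39 (SE 0.41), -0.33 (SE 0.26) and -0.32 log2 (SE 0.18), high-fat minus chow lineage, and all 4 high-fat/chow animals lay below the chow/chow mean for Angptl4 and for Lpl. The value of Slc27a1 was -0.11 without high-fat/chow replicate 1. Gpihbp1 differed by 0.13 (SE 0.18), Lmf1 by 0.037 (SE 0.085) and Vldlr by -0.074 (SE 0.082). Of the 12 slow-fibre markers 11 were lower in the same comparison (median -0.74 log2, 0 past limma's threshold, 6 at an unadjusted p under 0.05), and their part in these values was not tested. Here 2 of 6 genes were higher (49.5% of all genes), 0 passed (0.00791% of all genes), 0 had an unadjusted p under 0.05 (8.75%) and 0 separated without overlap (3.28%). Among high-fat-fed granddaughters Slc27a1 was higher by 0.42 (SE 0.26, 95% confidence interval -0.12 to 0.96, adjusted p = 0.497), with 4 of 4 animals above the chow/high-fat mean, and by 0.20 without chow/high-fat replicate 2. Lpl differed by 0.18 (SE 0.18), and by -0.0093 without high-fat/high-fat replicate 2. Lmf1 differed by -0.12 (SE 0.085), Gpihbp1 by 0.077 (SE 0.18), Angptl4 by -0.13 (SE 0.41) and Vldlr by 0.023 (SE 0.082). In that comparison 4 of 6 were higher (50.4% of all genes), 0 passed (0% of all genes), 0 had an unadjusted p under 0.05 (13.3%) and 0 separated without overlap (4.71%). The comparisons by own diet and by grandfather's diet share animals, so they are not independent of each other.

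Ordered by group mean, Slc27a1 ran from high-fat/chow (7.34 ± 0.48) through chow/chow (7.67 ± 0.42) and chow/high-fat (8.05 ± 0.54) to high-fat/high-fat (8.48 ± 0.25, SD). Angptl4 ran from high-fat/chow (6.85 ± 0.28) through chow/chow (7.24 ± 0.51) and high-fat/high-fat (7.60 ± 0.50) to chow/high-fat (7.73 ± 1.13). Gpihbp1 ran from chow/chow (8.03 ± 0.17) through high-fat/chow (8.16 ± 0.27) and chow/high-fat (8.41 ± 0.29) to high-fat/high-fat (8.49 ± 0.44). Lpl went from high-fat/chow (9.63 ± 0.21) through chow/high-fat (9.81 ± 0.35) and chow/chow (9.94 ± 0.25) to high-fat/high-fat (9.99 ± 0.39). Lmf1 went from chow/chow (7.53 ± 0.17) through high-fat/chow (7.57 ± 0.13) and then high-fat/high-fat (7.62 ± 0.086) to chow/high-fat (7.74 ± 0.095), and Vldlr from high-fat/chow (10.45 ± 0.067) through chow/high-fat (10.48 ± 0.19) and high-fat/high-fat (10.50 ± 0.10) to chow/chow (10.53 ± 0.058). Neighbours in each order overlapped and lay within 1 SD of each other, the larger SD of the pair, except for the top pair of Lmf1 (0.12 apart, SD 0.095). Slc27a1 and Gpihbp1 thus had both high-fat-fed groups above both chow-fed groups, as did Lmf1 and Angptl4, and Lpl and Vldlr did not.

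Within groups the genes varied to very different degrees. The pooled SD was 0.71 log2 for Angptl4, 0.44 for Slc27a1, 0.31 for Lpl and 0.30 for Gpihbp1, against a median of 0.14 over all genes, and each of these exceeded that of 96.4 to 99.8% of genes. It was 0.13 for Lmf1 and 0.12 for Vldlr. Over the 15 pairs of genes, correlations between animals after subtracting group means ran from -0.40 to 0.83, and 1 pair passed after Benjamini-Hochberg adjustment: Lpl with Gpihbp1, the enzyme with its carrier. For this pair Pearson's r was 0.83 (n = 18, permutation p = 0.000340, adjusted 0.00510) and Spearman's rho 0.79 (permutation p = 0.000780, adjusted 0.0117). Without chow/high-fat replicate 1 and high-fat/high-fat replicate 2, the 2 animals of most extreme Lpl level after subtracting group means, r was 0.68. Within well columns it was 0.85 in column 5 (8 arrays) and 0.37 in column 7 (6 arrays), and column 9 held too few. With the group means left in and animals permuted across all groups, r was 0.65 and the adjusted permutation p 0.0586, past the threshold no longer. The remaining 14 pairs did not pass. Of these Lpl with Slc27a1 had r = 0.36 (permutation p = 0.164, adjusted 0.820) and rho = 0.42 (permutation p = 0.0982, adjusted 0.722), and Lmf1 with Angptl4 had r = -0.40 (permutation p = 0.0912, adjusted 0.684) and rho = -0.28 (permutation p = 0.289, adjusted 0.722).

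**Figure D3:**
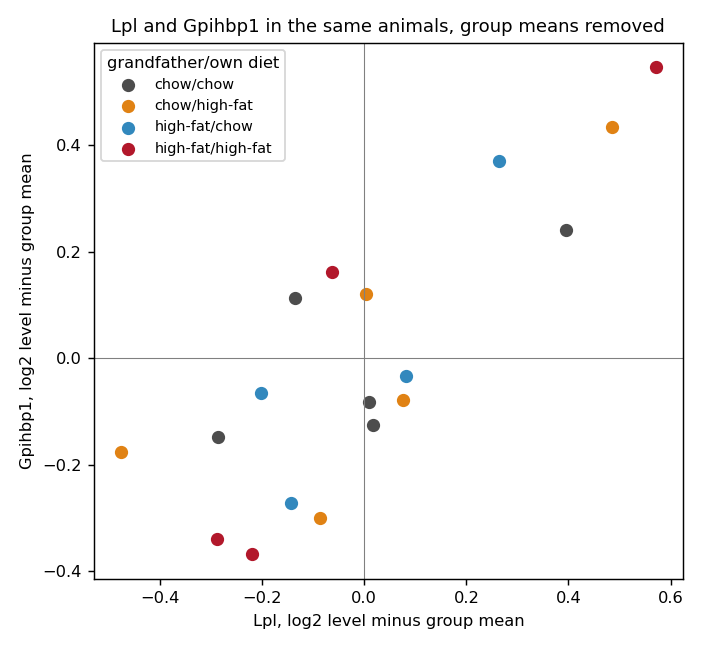
Each point is 1 of the 18 animals, coloured by group, with the log2 level of Lpl (x axis) and of Gpihbp1 (y axis) minus the mean of its group. The points rise together (r = 0.83), and the upper right corner holds high-fat/high-fat replicate 2 (0.57 and 0.55) and chow/high-fat replicate 1 (0.49 and 0.43).

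Levels of cell type markers were set beside these genes in the same way, as 30 relations of the 6 genes with the mean centred level of 5 marker lists, a step chosen after the data were seen. None passed after adjustment. The smallest p was that of Lpl with the 12 slow-fibre markers (r = 0.75, permutation p = 0.00289, adjusted 0.0867, rho = 0.74, adjusted permutation p = 0.0783, r = 0.76 without the 2 animals of most extreme score, 0.72 in well column 5 and 0.85 in column 7). Gpihbp1 with the 8 measured endothelial markers had r = 0.65 (permutation p = 0.00682, adjusted 0.102, rho = 0.61), r = 0.62 without 2 animals, 0.72 in well column 5 and -0.37 in column 7. Gpihbp1 with slow-fibre markers had r = 0.67 (permutation p = 0.0134, adjusted 0.134, rho = 0.60). Lpl with endothelial markers had r = 0.59 (permutation p = 0.0235, adjusted 0.176, rho = 0.54), with 0.81 in well column 5 and -0.81 in column 7. Angptl4 with leukocyte markers had r = 0.56 (permutation p = 0.0451, adjusted 0.218, rho = 0.50) and 0.27 without 2 animals. Slc27a1 had r = 0.45 with slow-fibre markers (permutation p = 0.0727, adjusted 0.218, rho = 0.51), and 0.47 without 2 animals. With fat-cell markers it had r = -0.48 (permutation p = 0.0904, adjusted 0.246, rho = -0.41), and -0.15 without 2 animals. Smaller p than these also belonged to other relations, among them Angptl4 with endothelial markers (r = 0.55, permutation p = 0.0551, adjusted 0.218) and Lmf1 with leukocyte markers (r = -0.52, permutation p = 0.0609, adjusted 0.218). The summed endothelial intensity ran from 2450 to 2772 in chow/chow, 2215 to 2683 in chow/high-fat, 2448 to 2855 in high-fat/chow and 2555 to 2848 in high-fat/high-fat animals. By own diet 7 of 8 endothelial markers were lower and 1 higher on average (median -0.049 log2, 48.3% of all genes higher), and Gpihbp1 was higher by 0.35. In the chow lineage 6 of 8 were lower (median -0.14) and Gpihbp1 was higher by 0.38. In the high-fat lineage 4 of 8 were lower (median 0.031) and Gpihbp1 was higher by 0.32. Of 9 measured fat-cell markers 8 passed the filter and Lep did not, and the mean of Adipoq lay at the 48.3 percentile. The fat-cell sum ran from 575 to 712, 644 to 904, 553 to 635 and 579 to 851 in the 4 groups in the order above. Their mean centred level averaged -0.019, 0.051, -0.015 and -0.025 in the same order. By own diet 5 of the 8 tested fat-cell markers were higher and 3 lower (median 0.035 log2). Lipe, the brightest of them and so the largest part of the fat-cell sum, differed by 0.40 (SE 0.11, limma adjusted p = 0.343). Adipoq differed by 0.030 (SE 0.19). Of the 12 leukocyte markers 12 were lower with the own high-fat diet (median -0.20 log2, 0 past limma's threshold), where 48.3% of all genes were higher. Of them 7 had an unadjusted p under 0.05, against 6.73% of all genes. The part of these cell types in the values of the 6 genes was not tested.

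The genes of most similar pattern were sought over 12642 genes as the 2 of highest Pearson's r with each gene over the 18 animals after subtracting group means. They are descriptions of maxima, and no p is given. Lpl was followed by Agpat2 (r = 0.89), an acyltransferase of phosphatidic acid synthesis, and Plpp3 (0.89), a lipid phosphate phosphatase. Gpihbp1 was followed by Epas1 (0.93), a hypoxia-inducible transcription factor, and Cpt2 (0.87), the inner carnitine palmitoyltransferase of mitochondria. Angptl4 was followed by Pdk4 (0.88), a kinase that restrains pyruvate oxidation, and Atp2b4 (0.84), a plasma membrane calcium pump. Slc27a1 was followed by the RNA helicases Ddx28 (0.90) and Dhx8 (0.88), Vldlr by Idh3a (0.86), a subunit of isocitrate dehydrogenase, and Prpf38a (0.85), a splicing factor, and Lmf1 by Cramp1 (0.79) and Sec14l5 (0.76). By own diet Agpat2 differed by 0.64 log2 (SE 0.18), Cpt2 by 0.29 (SE 0.073) and Pdk4 by 0.29 (SE 0.10), while Epas1 differed by 0.082 (SE 0.055), Plpp3 by 0.055 (SE 0.064) and Ddx28 by 0.060 (SE 0.053). Prpf38a differed by -0.13 (SE 0.050), Dhx8 by 0.035 (SE 0.049) and Idh3a by 0.020 (SE 0.045). Cramp1 differed by 0.017 (SE 0.056), Atp2b4 by -0.015 (SE 0.071) and Sec14l5 by -0.00062 (SE 0.092). No p is given for these differences, so none is called changed.

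Of 44 other genes of lipoprotein handling and fatty acid uptake, 30 were tested, and none passed in any of the 7 comparisons (0 rose and 0 fell by limma). In each comparison 1 to 3 of the 30 had an unadjusted p under 0.05, against 4.80% to 14.6% of all genes. By own diet 13 were higher and 17 lower (48.3% of all genes were higher), with a median of -0.039 log2. Among 10 genes of lipase maturation, cleavage and cofactors 2 were higher and 8 lower. The largest difference was that of Pcsk5 (-0.13, SE 0.069, adjusted p = 0.793), a proprotein convertase, and Sel1l, which acts with Lmf1 in lipase maturation, differed by -0.051 (SE 0.037). Among 6 lipoprotein receptors and their partners 3 were higher and 3 lower, from -0.10 to 0.068. Among 9 fatty acid transporters and caveolar genes 5 were higher and 4 lower: Cav1, the coat protein of caveolae, differed by -0.16 (SE 0.061, adjusted p = 0.683), and the transporters Slc27a4 and Slc27a6, of the family of Slc27a1, by 0.086 (SE 0.059) and 0.076 (SE 0.058). Among 5 lipid binding proteins Dbi, which binds acyl-CoA, differed by 0.29 (SE 0.10, adjusted p = 0.602), Fabp4 by 0.023 (SE 0.10) and Fabp5 by -0.076 (SE 0.084).

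By grandfather's diet 14 of the 30 were higher and 16 lower (48.8% of all genes were higher), with a median of -0.014 log2. Smallest in p were the muscle caveolin Cav3 (0.15, SE 0.051, adjusted p = 0.188), the lipoprotein receptor Scarb1 (0.25, SE 0.096, adjusted p = 0.230) and Fabp4 (-0.26, SE 0.10, adjusted p = 0.232), a fatty acid binding protein of fat cells and capillaries. Fabp4 was at 8.67 ± 0.20 in chow/chow, 8.91 ± 0.19 in chow/high-fat, 8.63 ± 0.15 in high-fat/chow and 8.43 ± 0.38 in high-fat/high-fat animals (SD). Its mean was thus highest in the chow/high-fat group and lowest in the high-fat/high-fat group. Listed genes without a single-symbol probe set or with a mean under the filter were not tested. Among the latter, Fabp1 was at 4.81 ± 0.15 in chow/chow and 4.90 ± 0.23 in chow/high-fat animals (SD). It was at 5.65 ± 0.45 in high-fat/chow and 5.66 ± 0.31 in high-fat/high-fat animals. For Fabp1 the lineages did not overlap at either own diet, but it was picked after its values were seen and was not tested. Among tested genes, which exclude Fabp1, 3.28% (own chow) and 4.71% (own high-fat) separated, each counted for 1 comparison alone. Fabp1 is dim: its mean lay at the 22.7 percentile, and both chow-lineage means were under the filter.

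**Figure D4:**
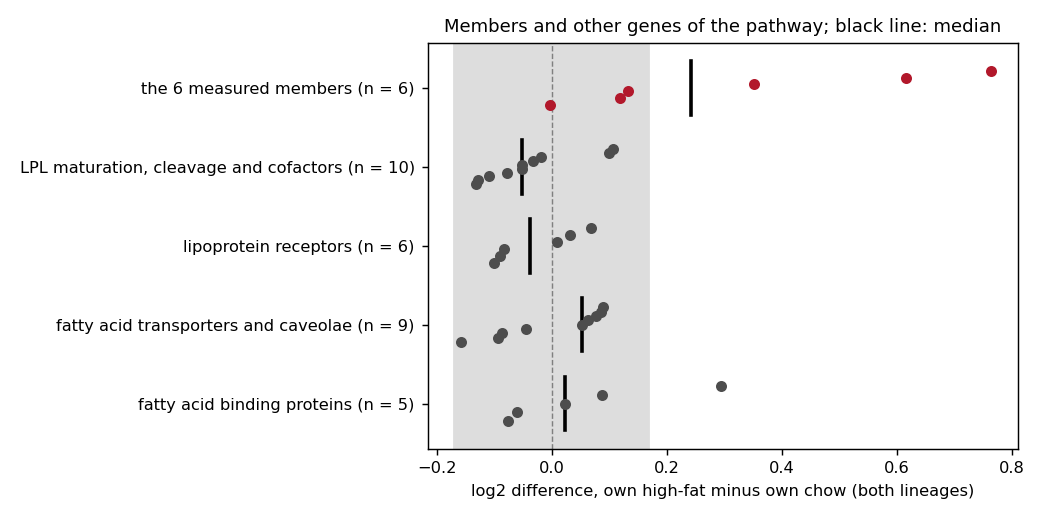
Each point is 1 gene, with the log2 difference by own diet averaged over both lineages on the x axis and its list on the y axis. Black lines are medians, and the grey band (±0.17) holds 95% of the 12642 genes. Of the 6 measured genes Slc27a1, Angptl4 and Gpihbp1 lie outside the band, and of the 30 others Dbi does.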

How the data were processed

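RNA of 18 muscles (200 ng each, per the labels' protocols) was hybridized to Affymetrix whole-transcript arrays. The deposited values are intensities on a linear scale made with Affymetrix Expression Console and PLIER, per the submitters' processing notes, with versions and settings not given in the sources used here. Values were taken as log2(intensity + 16) and quantile normalized (limma 3.58.1, R 4.3.3). Of probe sets with 1 symbol, that of highest mean stood for its gene, and genes above the 25th percentile of means (5.28 log2) were tested. Group means were estimated over the 18 arrays together (lmFit, eBayes, two-sided tests), with Benjamini-Hochberg adjustment over 12642 genes in each of 7 comparisons. No sample was dropped or imputed. Arrays of 1 group were compared for copies: the smallest SD of a log2 difference over 32 pairs was 0.196. Correlations used 100000 permutations within groups, or over all 18 arrays where the group means were left in. The pairs tested were 15, since 6 genes were measured. The fit was tested on simulated data. Well columns come from the sample titles, and the labels do not explain them. Some full codes recur between animals, so a well column is not a known batch. For arrays there is no read depth, and their number limits the precision.

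The members, the other lists and the alternatives were chosen with earlier results of these data known. The 6 measured members are named in each comparison. Of the wider lists the 3 of smallest p by own diet and by grandfather's diet are named, and the other genes named from them were chosen after their values were seen. For each member the 2 genes of highest correlation are named. Alternatives changed the normalization, offset, filter, probe set, variance model, samples in the fit, blocks and arrays.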

Additional observations from a re-analysis of the deposited data

Results flagged for a closer look

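The Angptl4 level of high-fat/chow replicate 4 (6.45 log2) lay apart from the other 3 animals of its group, of which the nearest was at 6.93. That gap made up 0.845 of the range of the group. Of 24 sets of 4 or 5 animals checked for the 6 genes, this was the 1 with such a sample, and chance flags about 1 in 20.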

How the results depend on the processing

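Under 14 other settings and with each of the 18 arrays left out, none of the 6 genes passed the threshold in any of the 7 comparisons, as far as each setting could be fitted. Of the differences of single genes, 545 kept their direction under another setting and 25 took the other sign, and with arrays left out 731 kept it and 25 did not; the cause was not tested. In the values as deposited, the difference by grandfather's diet was 0.0076 for Lpl, 0.047 for Lmf1 and 0.031 for Vldlr. It was -0.017 for Lmf1 with own chow, and 0.11 for Lmf1 and 0.098 for Angptl4 with the own high-fat diet, and the interaction was 0.13 for Lmf1 and 0.25 for Gpihbp1. In these values the median of all genes moved to -0.13 by own diet in the chow lineage and to 0.11 in the other one, to 0.18 for the grandfather's diet with own high-fat, and to 0.24 for the interaction. With arrays centred on their medians, the own-diet average of Vldlr was 0.011 and the interaction of Gpihbp1 0.045. With array weights, Vldlr was at 0.0063 by own diet and -0.0045 by grandfather's diet with own high-fat, where Angptl4 was at 0.030. With the well column as a block, Vldlr was at 0.015 by own diet, Slc27a1 at -0.056 by grandfather's diet, Gpihbp1 at -0.032 by grandfather's diet with own high-fat, and the interaction of Angptl4 was -0.052. With the array median as a covariate, Angptl4 was at -0.15 by own diet in the chow lineage, 0.098 by grandfather's diet and 0.78 with own high-fat, Vldlr at 0.0081 by grandfather's diet, and the interaction of Gpihbp1 was 0.0088. Without the 2 arrays of lowest median, Angptl4 was at -0.048, 0.011 and 0.41 in the same 3 comparisons. With single arrays left out, the own-diet difference of Vldlr ran from -0.025 to 0.034 on average and from -0.096 to 0.023 in the chow lineage. The grandfather's diet gave -0.066 to 0.16 for Slc27a1 on average and -0.033 to 0.084 for Lmf1 with own chow. With own high-fat it gave -0.0093 to 0.30 for Lpl, -0.11 to 0.20 for Gpihbp1, -0.60 to 0.11 for Angptl4 and -0.052 to 0.066 for Vldlr. The interaction ran from -0.24 to 0.068 for Gpihbp1 and from -0.21 to 0.50 for Angptl4. The correlation of Lpl and Gpihbp1 was 0.65 with group means left in and no longer passed, and its adjusted permutation p was 0.00525 or less in the deposited values, with centred arrays, with offsets of 1 and 64 and with the probe set of largest variance. No p was computed without 2 animals or within well columns. Over all genes the calls went from 2 to between 0 and 15 for the own diet, and from 25 to between 0 and 305 for the grandfather's diet. For the grandfather's diet with own high-fat they went from 0 to as many as 1689. The titles give no replicate numbers shared between groups, but animals of 1 lineage with numbers at most 3 apart form 8 blocks of 2. Each block joins a chow-fed and a high-fat-fed animal, and no label says that such animals are related or paired. The main model does not use these blocks. With these as a random block none of the 6 genes passed, the adjusted p of Slc27a1 by own diet was 0.130, and the calls over all genes by own diet went from 2 to 14. With 4 or 5 animals a group, the 95% interval for Angptl4 by own diet still ran from 0.0091 to 1.22.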
